A study of Rattus norvegicus with 6 samples.

Results

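The 10 genes described here are the transcription factor genes Atf3, Atf4 and Atf5, their stress targets Asns, Chac1, Trib3, Sesn2 and Vldlr, and the serine synthesis genes Psat1 and Phgdh. They were chosen by name, and every probe set that the platform annotation assigns to 1 of these symbols alone was taken, which gave 16 probe sets. Corticosterone was compared with vehicle within couples in limma, and a gene passed at an adjusted p under 0.05 over the 18625 probe sets tested. After a filter on dim probe sets, 12 of the 16 could be tested and 9 of the 10 genes had at least 1 of them, out of 9910 genes tested in all. Atf3 was the gene with none. Of the 9 genes tested, 5 fell with corticosterone (Atf4, Asns, Chac1, Trib3 and Sesn2), 1 rose (Phgdh) and 3 did not pass (Atf5, Psat1 and Vldlr). Among all genes tested 7.77% fell and 11.7% rose.

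The cells were rat neuronal progenitor cells, dividing precursors prepared from embryonic cerebral cortex at E15.5 and kept on fibronectin with 20 ng/ml of the mitogen bFGF. The corticosterone group (3 samples) received 1 µM corticosterone, the glucocorticoid hormone of rodents, for 48 h, and the vehicle group (3 samples) received its solvent DMSO for the same time. No strain, sex or number of embryos is given in the labels, and no transgene or genetic change is named. The samples form 3 couples of 1 treated and 1 vehicle sample, and each sample was hybridised to 1 Affymetrix array.

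ATF4 is a basic leucine zipper transcription factor at the centre of the integrated stress response. When amino acids are scarce or the endoplasmic reticulum is stressed, kinases phosphorylate the initiation factor eIF2, general translation falls and the Atf4 mRNA is translated more. ATF4 protein then raises genes that import amino acids, charge tRNAs and make asparagine and serine. Much of this control acts on translation, which an array of mRNA does not measure. Neural progenitors divide fast and draw on serine for one-carbon units, lipids and glycine, and Phgdh is known as a radial glia and astrocyte gene in the brain.

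ATF4 binds its targets with C/EBP partners at a composite site, the C/EBP-ATF response element. The 250 bases before the annotated start given in the promoter table were searched on both strands for the core TGATGNAA. For Asns, Psat1, Atf5 and Vldlr that start lay inside the annotated span of the gene. The bases before the outer end of these genes were not searched. Of the 9 genes with an entry in the promoter table, Chac1 and Trib3 held 1 match each, against 3.40% of all 33469 promoters in that table. The sequences are those of RefSeq on build GRCr8, read 5′ to 3′ on the strand of the gene, with the match in capitals. Chac1 and Trib3 are shown because they fell and hold the core, and Asns because it fell alongside them and holds none in this window. The Chac1 stretch lies at chr3:126795881-126796130 on the plus strand, with its match from 167 to 160 bases before the start. The Trib3 stretch lies at chr3:161275534-161275783 on the minus strand, with its match from 21 to 14 bases before the start. The Asns stretch lies at chr4:36769416-36769665 on the minus strand, inside the annotated gene, which extends to 36769970. Whether Asns holds the core before that outer end was therefore not examined.
Chac1: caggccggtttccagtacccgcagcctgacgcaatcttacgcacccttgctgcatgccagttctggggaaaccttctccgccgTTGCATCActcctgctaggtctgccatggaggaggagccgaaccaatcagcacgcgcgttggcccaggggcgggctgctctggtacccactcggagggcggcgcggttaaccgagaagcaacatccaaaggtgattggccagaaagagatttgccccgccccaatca
Trib3: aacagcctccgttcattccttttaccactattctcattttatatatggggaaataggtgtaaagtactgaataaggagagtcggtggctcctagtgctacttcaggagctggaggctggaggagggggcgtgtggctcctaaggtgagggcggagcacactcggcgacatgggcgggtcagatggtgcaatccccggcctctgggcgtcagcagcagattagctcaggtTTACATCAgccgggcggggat
Asns: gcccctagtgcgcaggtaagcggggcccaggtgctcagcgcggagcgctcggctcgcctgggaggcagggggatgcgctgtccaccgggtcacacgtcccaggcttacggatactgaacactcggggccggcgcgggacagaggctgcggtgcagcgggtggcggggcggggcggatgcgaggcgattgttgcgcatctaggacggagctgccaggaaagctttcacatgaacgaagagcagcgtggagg
The cAMP response element TGACGTCA was in 0 of the 9 and in 1.59% of all promoters, and the glucocorticoid response element core ACANNNTGT was in 0 of the 9 and in 5.81% of all. The CCAAT box, searched as CCAAT on both strands, was in Chac1, Sesn2, Psat1 and Phgdh and in 34.0% of all promoters. None of these motifs overlapped the capitals shown. A match describes letters only, and the absence of one describes only this window.

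The arrays had the same trimmed mean, but their median signals were 124 to 134 with corticosterone and 108 to 122 with vehicle. Between 78.3% and 80.7% of probe sets exceeded 22.8, the signal taken as background, with corticosterone, and between 75.3% and 78.1% with vehicle. Neither measure overlapped between the groups. All 10 progenitor markers, Nes, Sox2, Pax6 and Mki67 among them, were above that background on every array. They summed to 83932 to 94011 with corticosterone and 71696 to 88446 with vehicle. Of these markers Nes and Slc1a3 rose (0.26 and 0.49 on the log2 scale, limma adjusted p = 0.019 and 0.00054), and 8 did not pass. The summed signal of 5 astrocyte markers was 3662 to 4689 with corticosterone and 1057 to 1814 with vehicle. Most of that sum was Aldoc, with 2722, 3725 and 2968 with corticosterone and 846, 811 and 1499 with vehicle. S100b and Aldoc rose, Gfap did not pass (limma adjusted p = 0.13), and Aqp4 and Aldh1l1 were not tested. The sum of 8 microglia and macrophage markers was 320 to 397 with corticosterone and 248 to 301 with vehicle. Only 3 of these 8 exceeded background on every array. The 2 that were tested, Aif1 and Cd68, did not pass (adjusted p = 0.74 and 0.93). The 7 neuron markers, by signal mostly Map2, summed to 7392 to 10898 with corticosterone and 9934 to 10895 with vehicle. Of these Tubb3 fell (−0.52 on the log2 scale, limma adjusted p = 0.034) and the other 6 did not pass. Among those 6, Rbfox3 and Snap25 were higher in all 3 couples (0.25 and 0.20). The 6 oligodendrocyte lineage markers, by signal mostly Olig1, summed to 16549 to 22500 with corticosterone and 19779 to 24028 with vehicle. Among them the precursor marker Pdgfra fell, with 633, 214 and 1000 with corticosterone against 2892, 538 and 2970 with vehicle (−1.64, adjusted p = 2.9e-05). Olig1 and Olig2 did not pass (−0.09 and −0.38, adjusted p = 0.35 and 0.066). The 10 meningeal, pericyte and fibroblast markers summed to 1613 to 3741 with corticosterone and 897 to 2044 with vehicle, and couple 2 had the highest sum in both groups. Fbln2, Acta2 and Col1a2 of that list rose (1.58, 1.03 and 0.99), while Cspg4 did not pass (−0.22). The collagen gene Col3a1 had 928 in the corticosterone sample of couple 2, against 577 in its vehicle sample, and lay between 40.8 and 94.1 in the other 4 samples. Of the 8 microglia and macrophage markers only Itgam was at or under background on all arrays, while Aif1, Cd68 and Csf1r exceeded it on every array. The part of these other cell types in the results below was not tested, and in such bulk samples fewer cells of a type cannot be told apart from less RNA per cell.

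Transcript of Atf4, the regulator itself, was lower with corticosterone. Its signals (in MAS5 units, on a linear scale) were 5882, 4251 and 4951 on the corticosterone arrays of couples 1, 2 and 3, against 8017, 6454 and 7101 on their vehicle arrays. The highest corticosterone signal lay below the lowest vehicle signal, so the groups did not overlap. The mean was 5028 ± 818 with corticosterone and 7191 ± 786 with vehicle (SD, n = 3 arrays each). The log2 fold change, here and below that of the signal plus a pseudocount of 28.6, was −0.52 ± 0.06 (SE; limma adjusted p = 0.00021), and the signal fell by 30.1%. The 3 couples gave −0.45, −0.60 and −0.52. Treating the 6 arrays as unpaired kept the size of this change, but it no longer passed (adjusted p = 0.087).

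Atf5 and Atf3, which encode relatives of ATF4 that the same response can induce, gave no call. Atf5 signals were 345, 414 and 356 with corticosterone, against 369, 625 and 440 with vehicle, and the groups overlapped. Its log2 fold change was −0.31 ± 0.12 (limma adjusted p = 0.097, 95% interval −0.57 to −0.06), lower in each of the 3 couples but by unequal amounts from −0.09 to −0.56. After median centring of the arrays, which moved the median of all genes tested to −0.11, Atf5 passed (−0.42, adjusted p = 0.029). Atf3, an early stress response factor, was dim, at 6.39, 30.9 and 46.4 with corticosterone and 35.2, 59.3 and 43.3 with vehicle. It stayed under the filter and was not tested, and its groups overlapped.

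**Figure D1:**
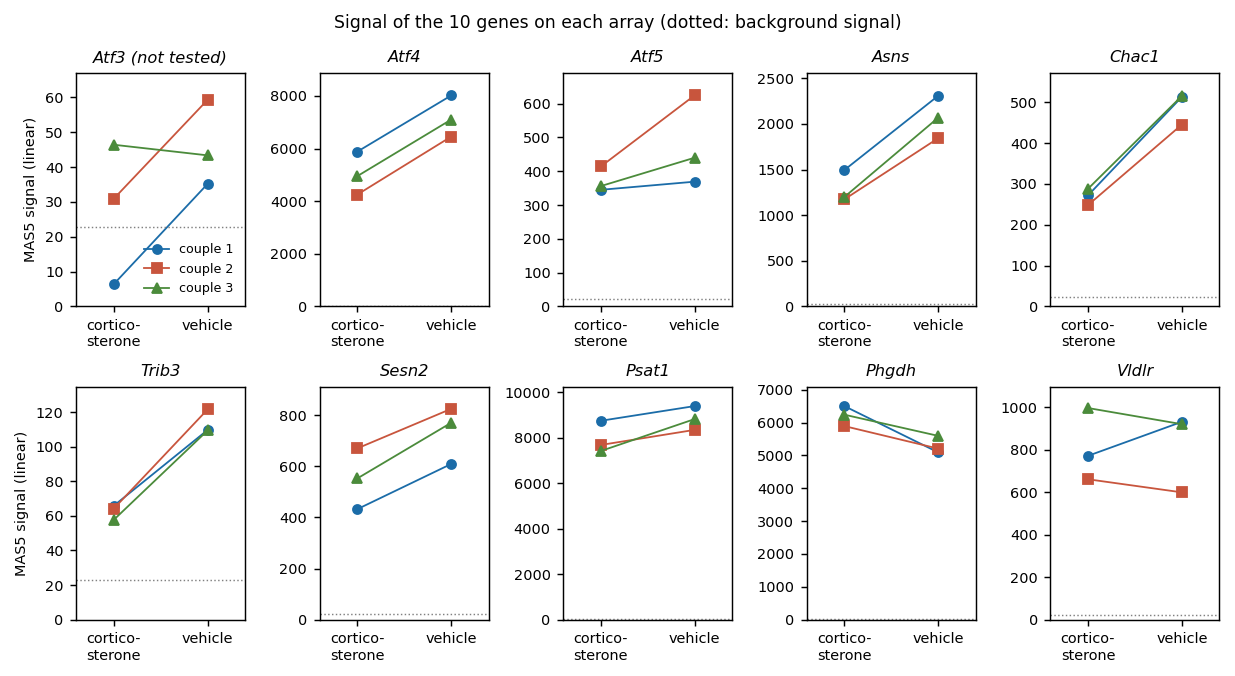
MAS5 signal (vertical axis, linear, from 0) of the 10 genes on each array, corticosterone left and vehicle right; a line joins the samples of a couple, and the dotted line is the background signal of 22.8. The lines of Atf4, Asns, Chac1, Trib3 and Sesn2 are lower on the corticosterone side in all 3 couples. So are those of Atf5 and Psat1, which did not pass. Those of Phgdh are higher on that side, and those of Vldlr cross.

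Asns encodes asparagine synthetase, which makes asparagine from aspartate and glutamine and is a classical ATF4 target. Its signals were 1495, 1173 and 1199 with corticosterone, against 2309, 1844 and 2069 with vehicle, with no overlap between the groups. The mean fell by 37.8%, to 1289 ± 178 with corticosterone against 2074 ± 233 with vehicle (SD, n = 3 each). The log2 fold change was −0.68 ± 0.07 (SE; limma adjusted p = 0.00013), and it passed under every alternative run. Asns ranked 86 of 9910 genes when these were ordered from the lowest log2 fold change, and Atf4 ranked 207.

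Chac1 encodes a gamma-glutamylcyclotransferase that degrades glutathione and rises late in the ATF4 and CHOP branch of the stress response. Its signals were 272, 248 and 288 with corticosterone, against 513, 445 and 515 with vehicle. These groups lay far apart relative to their spread, with means of 269 ± 20.1 with corticosterone and 491 ± 39.9 with vehicle (SD, n = 3 each). This was the largest fall among the 10 genes that the fit could test, −0.80 ± 0.11 on the log2 scale (SE; limma adjusted p = 0.00055). The couples gave −0.85, −0.78 and −0.78, and the call held under every alternative run.

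Trib3 encodes a pseudokinase that binds AKT and feeds back on ATF4. Its brightest probe set gave 65.9, 64.2 and 57.7 with corticosterone, against 110, 122 and 109 with vehicle. The groups did not overlap, although all signals were low. The log2 fold change was −0.64 ± 0.18 (SE; limma adjusted p = 0.036), from −0.55 to −0.69 over the couples. The suffix of this probe set (_s_at) marks probes shared between transcripts in the array maker's naming. The call did not hold in the unpaired fit (adjusted p = 0.090), without the filter on dim probe sets (0.11) or without couple 1, 2 or 3 (0.10, 0.19 and 0.084), and at the stricter filter Trib3 was not tested. A dimmer Trib3 probe set, under the filter, gave 37.4, 15.2 and 5.96 with corticosterone and 55.8, 47.9 and 50.3 with vehicle. The third one was at or under background on 5 of the 6 arrays.

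Sesn2 encodes sestrin 2, a leucine sensor that restrains mTORC1. Its signals were 432, 670 and 553 with corticosterone, against 609, 825 and 770 with vehicle. The ranges of the groups overlapped because the couples differed in level, while within each couple the corticosterone sample was lower (−0.47, −0.29 and −0.46). The log2 fold change was −0.41 ± 0.09 (SE; limma adjusted p = 0.012). Unpaired, the adjusted p was 0.30, without the intensity trend 0.060, and without couple 1 or 2 it was 0.065 and 0.054. The other Sesn2 probe set was under the filter, at 71.4, 59.4 and 35.3 with corticosterone and 73.7, 81.0 and 47.9 with vehicle.

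In the serine synthesis pathway PHGDH makes the first step from 3-phosphoglycerate, PSAT1 the transamination and PSPH the final dephosphorylation. Phgdh passed as higher, Psph passed as lower and Psat1 did not pass. Phgdh signals were 6501, 5893 and 6240 with corticosterone, against 5091, 5207 and 5595 with vehicle, with every corticosterone array above every vehicle array. Phgdh was higher by 17.2%, or 0.23 ± 0.06 on the log2 scale (SE; limma adjusted p = 0.030). The astrocyte marker sum and the progenitor markers Nes and Slc1a3 given above were higher in the same samples. Their part in this rise was not tested. The rise did not pass in the unpaired fit (0.21), without the filter (0.082), without the trend (0.19) or without couple 1, 2 or 3 (0.16, 0.12 and 0.0503). After median centring the rise was 0.12 (adjusted p = 0.19), when the median of all genes tested was −0.11.

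Psat1 signals were 8754, 7690 and 7425 with corticosterone, against 9402, 8355 and 8831 with vehicle. The groups overlapped, and the log2 fold change was −0.16 ± 0.06 (SE; limma adjusted p = 0.092, 95% interval −0.28 to −0.03). Psat1 passed as lower after median centring (−0.26, adjusted p = 0.0099), when the median of all genes tested was −0.11. Psph signals were 940, 831 and 772 with corticosterone against 1199, 1085 and 924 with vehicle (−0.32 ± 0.08, limma adjusted p = 0.020). Psph did not pass unpaired (0.26), without the trend (0.088) or without couple 1 or 2 (0.099 and 0.14).

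The change of Phgdh relative to Psat1 within the same arrays does not depend on how an array was scaled. Phgdh minus Psat1 moved by 0.45, 0.30 and 0.41 on the log2 scale in couples 1, 2 and 3 (mean 0.39 ± 0.08, SD, n = 3). Phgdh minus Psph moved by 0.69, 0.55 and 0.41. Psat1 minus Psph moved by 0.24, 0.25 and 0.0020 (mean 0.16 ± 0.14), little more than its spread, and both genes were lower in all 3 couples. Both relative changes of Phgdh had 1 direction in all 3 couples, and an exact sign permutation test over 3 couples cannot give a two-sided p below 0.25. Which gene of a pair changed cannot be read from such a ratio.

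Vldlr encodes the very low density lipoprotein receptor, a receptor for reelin and lipoproteins whose transcript ATF4 can raise. Its 4 probe sets were all tested and all failed to pass, with log2 fold changes of 0.18, −0.05, −0.01 and −0.25 (limma adjusted p from 0.15 to 0.98). The brightest set gave 771, 660 and 996 with corticosterone, against 931, 599 and 920 with vehicle. Its 95% interval was −0.22 to 0.21. Couple 1 was lower in each of the 4 sets, from −0.08 to −0.45, whereas couple 3 was not lower in any.

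**Figure D2:**
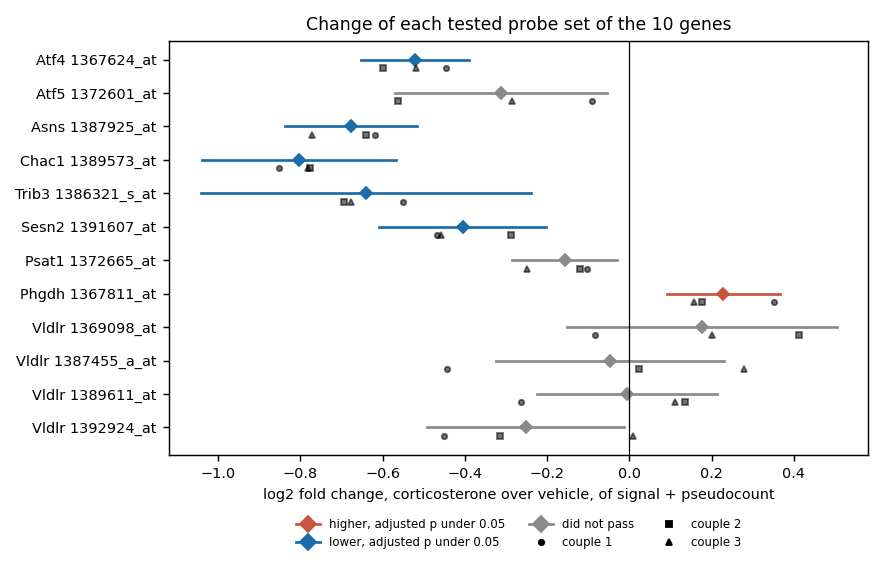
log2 fold change (horizontal axis, corticosterone over vehicle) of the 12 tested probe sets; diamonds are the limma estimates, bars their 95% intervals, and small black symbols the differences within couples 1, 2 and 3. Chac1 lies farthest to the left at −0.80, Phgdh at 0.23 is the probe set called higher, and the Vldlr sets scatter around 0.

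Among the 9 genes tested 8 had a negative log2 fold change, and their median was −0.41, against 0.00 over all genes tested. In 4 of them (Atf4, Asns, Chac1 and Trib3) all corticosterone signals lay below all vehicle signals, as they did for 11.4% of the 9910 genes. In Phgdh all lay above, as for 14.8% of genes. Across the 6 arrays the level of Atf4 followed that of Asns closely. The root mean square distance between their log2 signals, each centred on its own mean, was 0.10, which ranked 4 of 9909 genes. Nearer to Asns were Slc7a3, a transporter of cationic amino acids (distance 0.07), Aatf (0.09) and Tma16 (0.10). Mdn1 and Tp53rkb, at 0.10 each, came next after Atf4. Chac1 and Trib3 lay at 0.14 and 0.16, and Sesn2 and Atf5 at 0.38 and 0.39. The genes nearest to Phgdh were Rab5b, Grcc10, Lhpp, Flii and Ift43, at 0.02 to 0.03, of which Rab5b and Grcc10 passed as higher (0.26 and 0.22, limma adjusted p = 0.028 and 0.031). The arrays share their group, so these distances describe likeness and carry no test.

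Other genes of the pathway were read from 8 lists that together held 109 tested genes, of which 34 fell, 9 rose and 66 did not pass. Over all genes tested 7.77% fell and 11.7% rose. The aminoacyl-tRNA synthetases, enzymes that load amino acids onto tRNA and that ATF4 can raise, fell as a list. All 12 synthetase genes passed as lower, against 7.77% of all genes, with a median log2 fold change of −0.34 and a range from −0.77 to −0.22. Each was lower in all 3 couples, as were 27.2% of all genes. The isoleucyl enzyme gene Iars1 had 1254, 1238 and 1310 with corticosterone, against 2349, 1981 and 2243 with vehicle (−0.77 ± 0.07, limma adjusted p = 7.0e-05). Cars1 and Tars1, for cysteine and threonine, fell by 0.56 and 0.54 on the log2 scale (adjusted p = 0.00062 and 0.00046). In the unpaired fit 5 of the 12 passed, and without the trend 4 did. Leaving out couple 2 left 6, and averaging all probe sets of a gene left 8.

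Amino acid transporters also fell in most cases. Of 10 tested 6 fell, 1 rose and 3 did not pass, with a median of −0.35. That is 60% lower, against 7.77% of all genes, and 10% higher, near the 11.7% of all genes. Slc7a1, the carrier of arginine and lysine, had 1728, 1527 and 2012 with corticosterone, against 3130, 3528 and 3636 with vehicle, a log2 fold change of −0.96 ± 0.08 (limma adjusted p = 2.9e-05). No corticosterone array reached the lowest vehicle array. Slc1a4, which carries serine and alanine, and Slc7a3 fell by 0.69 and 0.62 on the log2 scale (adjusted p = 0.0008 and 0.0035). The glycine transporter gene Slc6a9 rose by 0.33 (adjusted p = 0.023) and lost its call with median centring (0.10), unpaired (0.36), without the trend (0.086), with probe sets averaged (0.057), and without couple 1 or 2 (0.11 and 0.14). Unpaired, 3 transporters passed as lower and Slc7a3 did not (0.081).

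Of 15 serine, glycine and one-carbon enzymes 7 fell, 0 rose and 8 did not pass in limma. These shares of 46.7% lower and 0% higher compare with 7.77% and 11.7% of all genes. The median of the list was −0.20, but −0.13 without couple 2, −0.31 without couple 3 and, over 19 genes without the filter, −0.02. At an unadjusted p under 0.05 there were 2 higher genes and 8 lower ones. The mitochondrial folate enzymes were among those that fell. Mthfd2, which oxidises methylene-tetrahydrofolate, had 984, 657 and 807 with corticosterone, against 1494, 1084 and 1038 with vehicle (−0.55 ± 0.09, limma adjusted p = 0.0020). Aldh1l2 and Mthfd1l, also of mitochondrial folate metabolism, fell by 0.54 and 0.46 on the log2 scale (adjusted p = 0.0077 and 0.011). Shmt2, the mitochondrial enzyme that splits serine into glycine and a one-carbon unit, fell by 0.43 (adjusted p = 0.0033). Unpaired, 0 of the 15 passed in limma (unadjusted p under 0.05 for 7 lower and 1 higher), and without the trend 2 fell. Without couple 1 there were 4, with Aldh1l2 lost (0.069), and without couple 2 there were 3, with Mthfd1l and Shmt2 lost (0.12 and 0.058).

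**Figure D3:**
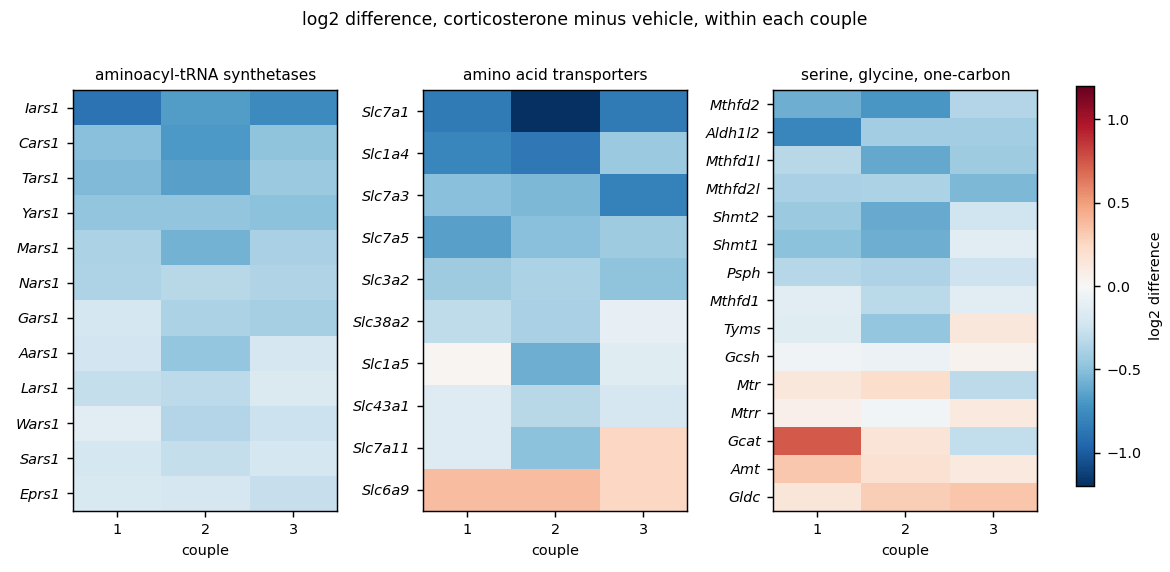
log2 difference of corticosterone minus vehicle within couples 1, 2 and 3 (columns) for the tested aminoacyl-tRNA synthetases, amino acid transporters and serine, glycine and one-carbon enzymes (rows, sorted by log2 fold change); blue is lower and red higher with corticosterone. All 12 synthetase rows are blue in every couple, whereas Slc6a9 is red in all 3.

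In the upstream part of the response, of 16 kinases, phosphatases and initiation factors 3 fell, 1 rose and 12 did not pass, which is 6.25% higher and 18.8% lower, against 11.7% and 7.77% of all genes. Their median of −0.05 ranged from −0.02 to −0.10 with 1 couple left out. After median centring it was −0.15, when the median of all genes tested was itself −0.11. Eif2ak3, the gene of the endoplasmic reticulum kinase PERK, had 623, 617 and 540 with corticosterone, against 621, 713 and 539 with vehicle (−0.06 ± 0.09, limma adjusted p = 0.71, 95% interval −0.27 to 0.14). Eif2ak2, the gene of the RNA-activated kinase PKR, rose by 0.50 (adjusted p = 0.017). Impact, an inhibitor of the amino acid sensor kinase GCN2, and the eIF2 subunit genes Eif2s2 and Eif2s1 fell by 0.30, 0.22 and 0.21 on the log2 scale (adjusted p = 0.048, 0.028 and 0.029). Without the filter 0 of these 4 passed in limma (adjusted p from 0.054 to 0.091), and unadjusted p under 0.05 were reached by 1 higher and 4 lower genes of the list. In the unpaired fit 0 passed (unadjusted, 1 higher and 2 lower), and without couple 2 0 passed (unadjusted, 1 and 3).

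Of 18 other ATF4 and CHOP targets tested 3 rose, 2 fell and 13 did not pass, with a median of 0.00. These shares of 16.7% higher and 11.1% lower were near those of all genes (11.7% and 7.77%). Ddit4, an mTORC1 inhibitor gene that glucocorticoids also raise, had 1232, 2001 and 1582 with corticosterone, against 454, 466 and 545 with vehicle (1.64 ± 0.12, limma adjusted p = 1.6e-05). The cell cycle inhibitor gene Cdkn1a and Cebpg, which encodes a partner of ATF4, rose by 0.55 and 0.47 (adjusted p = 0.00073 and 0.0025). Aldh18a1, an enzyme of proline synthesis, and the translation repressor gene Eif4ebp1 fell by 0.58 and 0.34 on the log2 scale (adjusted p = 0.00035 and 0.0068). Ddit3, the gene of CHOP, had 268, 204 and 160 with corticosterone, against 276, 266 and 238 with vehicle, and did not pass (−0.29 ± 0.14, adjusted p = 0.18). Unpaired, Cdkn1a, Cebpg and Eif4ebp1 did not pass (0.22, 0.064 and 0.26).

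**Figure D4:**
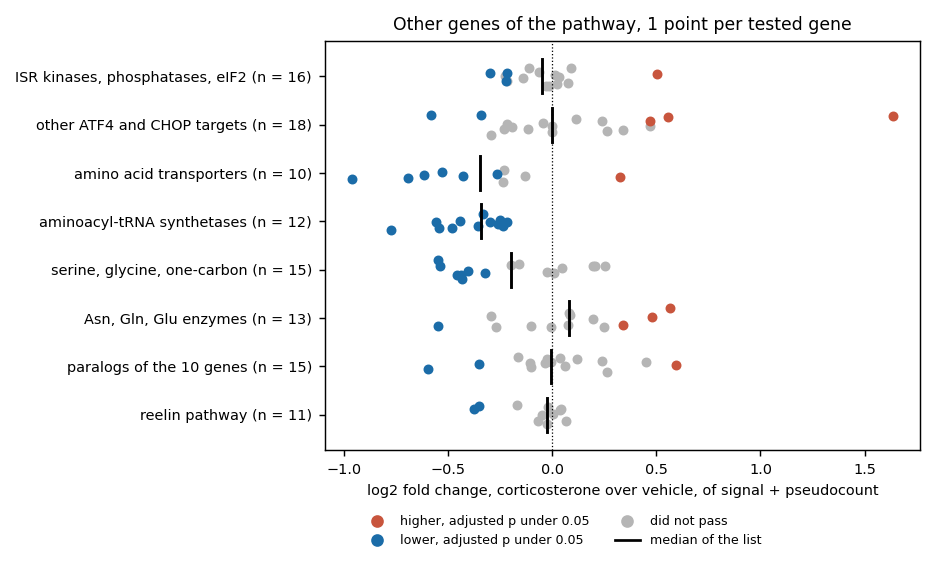
log2 fold change (horizontal axis, corticosterone over vehicle) of every tested gene in the 8 pathway lists; blue points passed as lower, red as higher, grey did not pass, and the black bar is the median of a list. The synthetase points all lie below 0, with a median of −0.34, while the other ATF4 and CHOP targets spread from −0.58 to 1.64.

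Of 13 enzymes of asparagine, glutamine and glutamate tested 3 rose, 1 fell and 9 did not pass. The share that fell, 7.69%, was that of all genes (7.77%), and 23.1% rose, against 11.7% of all genes. Glutathione synthetase Gss rose by 0.57, glutamine synthetase Glul by 0.48 and glutamate dehydrogenase Glud1 by 0.34 (limma adjusted p = 0.0041, 0.0038 and 0.019). Glul, an astrocyte enzyme in the brain and a known glucocorticoid-raised gene, had 4649, 4015 and 4475 with corticosterone, against 2722, 3349 and 3367 with vehicle, without overlap. The astrocyte marker sum, Nes and Slc1a3 moved the same way as Glul, and their part was not tested. Asrgl1, which hydrolyses asparagine, fell by 0.55 on the log2 scale (adjusted p = 0.0076), but by 0.21 with its probe sets averaged (0.16). In the unpaired fit 0 of the 13 passed in limma (unadjusted p under 0.05 for 3 higher and 1 lower), and without couple 2 Gss and Glud1 did not pass (0.051 and 0.20).

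Close relatives of the 10 genes mostly did not pass, with 1 of 15 higher (6.67%), 2 lower (13.3%) and 12 not past the threshold, against 11.7% and 7.77% of all genes. The receptor genes Lrp1 and Lrp8 fell by 0.59 and 0.35 on the log2 scale (limma adjusted p = 0.0019 and 0.011), and Lrp4 rose by 0.60 (adjusted p = 0.0012). Lrp8, the other reelin receptor, had 975, 954 and 977 with corticosterone, against 1274, 1233 and 1217 with vehicle, with no overlap. Dab1, the adaptor that both reelin receptors bind, also fell (−0.37 ± 0.07, adjusted p = 0.0035), and with Lrp8 it made up the 2 of 11 reelin pathway genes that passed. That is 18.2% lower and 0% higher, against 7.77% and 11.7% of all genes, and the median of the reelin list was −0.03. Unpaired, Lrp1, Lrp8, Lrp4 and Dab1 did not pass (0.33, 0.098, 0.14 and 0.35), nor did Lrp8 without couple 1 or 2 (0.059 and 0.082) or Dab1 without couple 2 (0.053).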

How the data were processed

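Gene expression was measured on 1-colour Affymetrix arrays in 3 corticosterone and 3 vehicle samples. Total RNA (3 µg) was primed with oligo(dT), per the labels' protocols, which weights signal towards the 3′ end. The deposited values are linear signal intensity per probe set, made by the authors with MAS5, per the submitters' processing notes. No source used here gives its version or settings. Each array has the same trimmed mean (500.2 after trimming 2% at either end).

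Of 31099 probe sets 57 controls were left out. Symbols came from the platform annotation, and 20826 probe sets had 1 symbol, 436 several and 9780 none. Signals were taken as log2(signal + 28.6), a pseudocount equal to their 25th percentile, so changes of low genes are understated. The dimmest 40% (mean signal under 63.6) were not tested, which left 18625. Treatment and couple were fitted with limma 3.58.1 (R 4.3.3, eBayes with an intensity trend), tested on simulated data beforehand. Adjusted p-values are two-sided Benjamini-Hochberg values over the 18625, at a threshold of 0.05. The probe set with the highest mean log2 signal stood for a gene. Background is the 95th percentile of 27 bacterial controls. Precision is limited by the number of arrays.

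The series design text describes couples, and the titles number them. Deviations from group means correlated by 0.57, 0.52 and 0.35 within couples and by −0.48 to 0.003 between them. No source says that couples came from separate cultures, so p-values measure spread that may be technical. The 10 genes, the lists and the tests were chosen with earlier results of these data known. Within lists, all genes past the threshold were named up to 6, otherwise the 3 largest changes per direction, besides Ddit3, Psph, Shmt2, Mthfd2 and Eif2ak3. Alternatives covered the block, pseudocount, filter, scaling, trend, probe set choice and each couple left out.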

Additional observations from a re-analysis of the deposited data

How the results depend on the processing

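The falls of Asns and Chac1 passed under every alternative run, and all 6 genes of the 10 that passed kept their direction under each alternative that tested them. Without the couple as a replicate block 0 of the 10 genes were higher (1 at an unadjusted p under 0.05 in limma) and 2 lower, against 1 and 5 with it. In this unpaired fit the counts higher and lower were 0 and 0 for the stress kinases and initiation factors, 1 and 1 for other ATF4 targets, 0 and 3 for transporters, 0 and 0 for asparagine, glutamine and glutamate enzymes, and 0 and 0 for relatives. Synthetases numbered 5 lower, one-carbon enzymes 0 and reelin genes 0. Unadjusted, at p under 0.05 in limma, the lists with 0 past held at most 7 lower (one-carbon) and 3 higher (asparagine enzymes). Over all tested probe sets 417 passed without the block and 2953 with it.

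Without the filter 0 of the 10 genes were higher and 0 of the kinase list either way, and 1 one-carbon gene was higher. Without the trend 0 of the 10 genes were higher, while the lower counts were 0 for kinases, 1 for other targets, 4 for synthetases, 2 for one-carbon enzymes, 0 for asparagine enzymes, 0 for relatives and 0 for reelin genes. Asparagine enzymes then had 1 higher and transporters 0. Median centring, which moved the median log2 fold change of all tested probe sets to −0.11, left 0 of the 10 genes and 0 transporters higher and 7 of the 10 and 2 asparagine enzymes lower. Averaging probe sets left 0 transporters higher, 0 asparagine enzymes lower and 1 reelin gene lower. In limma each of these counts of 0 had from 0 to 4 genes at an unadjusted p under 0.05.

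With 1 couple left out the counts ranged from 0 to 0 higher and 3 to 4 lower for the 10 genes, 0 to 1 and 0 to 2 for kinases, 3 to 5 and 2 to 2 for other targets, 0 to 1 and 5 to 6 for transporters, 1 to 3 and 1 to 1 for asparagine enzymes, and 1 to 1 and 1 to 2 for relatives. Lower synthetases ranged from 6 to 9, one-carbon enzymes from 3 to 7 and reelin genes from 0 to 2. Of 29 named pathway genes that passed 22, 17 and 26 kept their call without couple 1, 2 and 3, and all kept their direction.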

Other observations

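The filter kept some genes of serine and amino acid metabolism out of the test. They are described here because their values stood out. Sds, the serine dehydratase that breaks serine down to pyruvate and that glucocorticoids are known to raise in liver, had signals of 57.5, 48.3 and 35.6 with corticosterone, against 6.53, 5.64 and 5.06 with vehicle. All vehicle signals were under the background of 22.8, so Sds was at least 2.03-fold higher, by the geometric mean of the corticosterone signals over that background. Aldh1l1, a cytosolic folate enzyme that is also an astrocyte marker, had 93.5, 82.0 and 84.8 with corticosterone and 23.1, 38.3 and 54.2 with vehicle. Fgf21, a secreted hormone gene that ATF4 can raise, had 53.0, 75.4 and 54.7 with corticosterone and 25.1, 36.1 and 43.6 with vehicle. These 3 genes were picked after their values were seen, so no test is given for them.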
